A study of Mus musculus with 20 samples.

Results

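The endocannabinoid system was described here through 7 genes: the cannabinoid receptor CB1 (Cnr1), the synthetic enzymes Dagla, Daglb and Napepld, and the degrading enzymes Mgll, Faah and Abhd6. They were chosen by name as the core receptor and enzyme genes, out of 35580 genes in the files, and each gene's value in a sample is the sum over all of its transcripts. The RNA-seq data came from 20 samples of male C57BL/6J mice at an age of 13.5 months. Each genotype, WT or miR-324-null, gave 5 hippocampus and 5 neocortex samples. The miR-324-null mice carried a deletion at Mir324 in all cells, made with CRISPR/Cas9 in founders of mixed C57BL/6 and CBA/ca descent and then backcrossed to C57BL/6J. WT and miR-324-null animals were bred as separate lines from heterozygous crosses, so differences between the lines other than the deletion cannot be told apart from genotype. No other treatment was given, and the level of miR-324 itself was not analysed here, since mRNA libraries do not measure a short RNA.

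Endocannabinoids are lipids that a neuron makes on demand and that act backwards across the synapse. A postsynaptic cell cuts diacylglycerol to 2-arachidonoylglycerol (2-AG) with a diacylglycerol lipase, and 2-AG then binds CB1 on the presynaptic terminal, where it lowers transmitter release. Monoacylglycerol lipase, encoded by Mgll, ends most of this signal in the terminal and in glia, whereas Abhd6 cleaves 2-AG in the postsynaptic cell. Anandamide and its relatives, the N-acylethanolamines, are made in part by the phospholipase D encoded by Napepld and broken down by fatty acid amide hydrolase, encoded by Faah. In hippocampus and neocortex, CB1 is densest on the terminals of cholecystokinin-containing inhibitory neurons and thinner on those of glutamatergic neurons. The RNA measured comes largely from cell bodies in the dissected tissue, and in bulk samples fewer cells of a type and less RNA per cell cannot be told apart.

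Positions are given on GRCm38. Cnr1 is at chr4:33924593-33948831 on the plus strand, and Faah, on the same chromosome, is at chr4:115967145-116017926 on the minus strand. Dagla is at chr19:10245265-10304877 (minus), Daglb at chr5:143464584-143505942 (plus) and Napepld at chr5:21662901-21701396 (minus). Mgll is at chr6:88724412-88828360 and Abhd6 at chr14:8002902-8056763, both on the plus strand. The annotation gives 10 transcripts for Mgll, 8 for Faah, 4 for Daglb, 3 each for Cnr1, Dagla and Abhd6, and 2 for Napepld.

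The deleted locus encodes a pair of mature miRNAs, and their sequences are shown because each seed (bases 2 to 8, in capitals) sets which 3′UTR letters it can pair with. Both are from RefSeq, build GRCm38.p6, plus strand of chromosome 11.
miR-324-5p, chr11:70012060-70012082: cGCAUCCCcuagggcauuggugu
miR-324-3p, chr11:70012095-70012114: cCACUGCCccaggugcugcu
Matches were searched on the sense strand of the 3′UTRs of annotated protein-coding transcripts. For miR-324-5p the letters were GGGATGC (pairing with the whole seed, termed 7mer-m8), GGATGCA (pairing with bases 2 to 7 followed by an A, termed 7mer-A1) and GGGATGCA (both, termed 8mer). For miR-324-3p the 7mer-m8 was GGCAGTG, while the 7mer-A1 was GCAGTGA and the 8mer was written GGCAGTGA. The 3 kinds overlap, and a position was counted once under the longest match it held. The paper describes forms of miR-324-3p that differ in their seed, and only the seed of the sequence shown was searched.

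Of the 7 genes, 3 held a match. Dagla and Mgll each held matches to both arms, Napepld held a match to miR-324-3p, and no such letters were found in the 3′UTRs of Cnr1, Daglb, Faah or Abhd6. None of the matches was an 8mer. Each is printed below as a window of 30 bases on the gene's strand of GRCm38, with the match in capitals and its coordinates.
Dagla, miR-324-5p, 7mer-m8, chr19:10247008-10247014: aggtggggtcaGGGATGCcccttctttgcc
Dagla, miR-324-3p, 7mer-m8, chr19:10247652-10247658: cacttGGCAGTGgccaccagctccttccca
Dagla, miR-324-3p, 7mer-m8, chr19:10245984-10245990: ccccctgccgaGGCAGTGcctcagcctagc
Mgll, miR-324-5p, 7mer-A1, chr6:88827848-88827854: ccatcaccacaGGATGCAgaggaattgggg
Mgll, miR-324-3p, 7mer-m8, chr6:88825830-88825836: ggcagaggaagGGCAGTGctggctggctca
Mgll, miR-324-3p, 7mer-A1, chr6:88826898-88826904: gctcccctgaaGCAGTGAaacccaagcccc
Mgll, miR-324-3p, 7mer-m8, chr6:88828052-88828058: tgccacctgcaGGCAGTGgaacatctcaac
Napepld, miR-324-3p, 7mer-A1, chr5:21663969-21663975: aatgggacaaaGCAGTGAgttttctatata
Such matches are common. Genes with enough counts to be tested over the 20 samples and with an annotated 3′UTR numbered 14744. Of these, 15.3% held at least 1 match of the 3 kinds to miR-324-5p, and 24.8% held at least 1 to miR-324-3p. With the whole-seed kinds alone the shares were 9.46% and 17.0%. The longest 3′UTR was 2584 bases in Mgll, 2399 bases in Dagla and 2327 bases in Napepld, and Cnr1, whose longest 3′UTR of 3796 bases exceeded that of 90.0% of these genes, held none. A match describes these letters only and shows no binding.

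Depth, as the sum of estimated counts over genes, lay between 12752439 and 19617765 per sample, and the smallest count of any of the 7 genes was 223, for Napepld in 1 WT neocortex sample. All 7 genes passed the filter on low counts in every comparison. Levels between genes are given in TPM, abundance corrected for transcript length and library depth, and tests used counts. The tissue labels were borne out by marker genes: all 6 hippocampus markers were higher in hippocampus than in neocortex in both genotypes (edgeR's quasi-likelihood test, adjusted p of at most 0.05 by Benjamini-Hochberg), and 5 of 6 neocortex markers were lower. Some libraries nevertheless stood apart. In the neocortex, the summed level of the hippocampus markers was 112 to 157 CPM (counts scaled by library size) in miR-324-null samples 1 to 4, against 73.0 in miR-324-null sample 5 and 79.2 to 87.0 in the WT samples, while it was 496 to 681 in hippocampus of both genotypes. Choroid plexus markers summed to 4461 CPM in WT hippocampus sample 3, 3844 in miR-324-null hippocampus sample 5 and 789 in miR-324-null neocortex sample 2, and to at most 130.01 in any other library. Striatum markers summed to 206 to 509 CPM in the 5 miR-324-null neocortex samples, highest in samples 3 and 4, against 121 to 170 CPM in 4 WT neocortex samples and 331 in WT sample 2. Neocortex markers summed to 531 to 654 CPM in miR-324-null neocortex samples 1 to 4, against 792 in sample 5 and 698 to 796 in WT. On the third principal component, with 6.31% of the variance, miR-324-null hippocampus samples 1 and 2 lay at −30.2 and −25.7, below all the others.

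The 7 genes spanned about 1 order of magnitude in level, and their order was headed by degrading enzymes in all 4 groups. In WT hippocampus, Mgll was highest at 110.0 ± 8.64 TPM (SD, n = 5), followed by Faah at 86.1 ± 8.84 TPM, Dagla at 57.2 ± 2.98 TPM, Cnr1 at 48.2 ± 6.19 TPM and Abhd6 at 47.7 ± 1.85 TPM. Daglb, the second diacylglycerol lipase, was at 15.6 ± 0.49 TPM, and Napepld was lowest at 13.4 ± 1.89 TPM. Mgll thus stood above 91.8% of the tested genes of that group and Napepld above 47.7%. The ranges of Mgll and Faah overlapped there, as did those of Dagla and Cnr1, of Cnr1 and Abhd6, and of Daglb and Napepld. Within the same sample, however, Mgll was above Faah, Dagla above Cnr1 and Daglb above Napepld in 5 of 5 samples, and only Cnr1 and Abhd6 were mixed, with Cnr1 above in 3 of 5. Faah lay above Dagla, and Abhd6 above Daglb, in every WT hippocampus sample with no overlap.

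**Figure D1:**
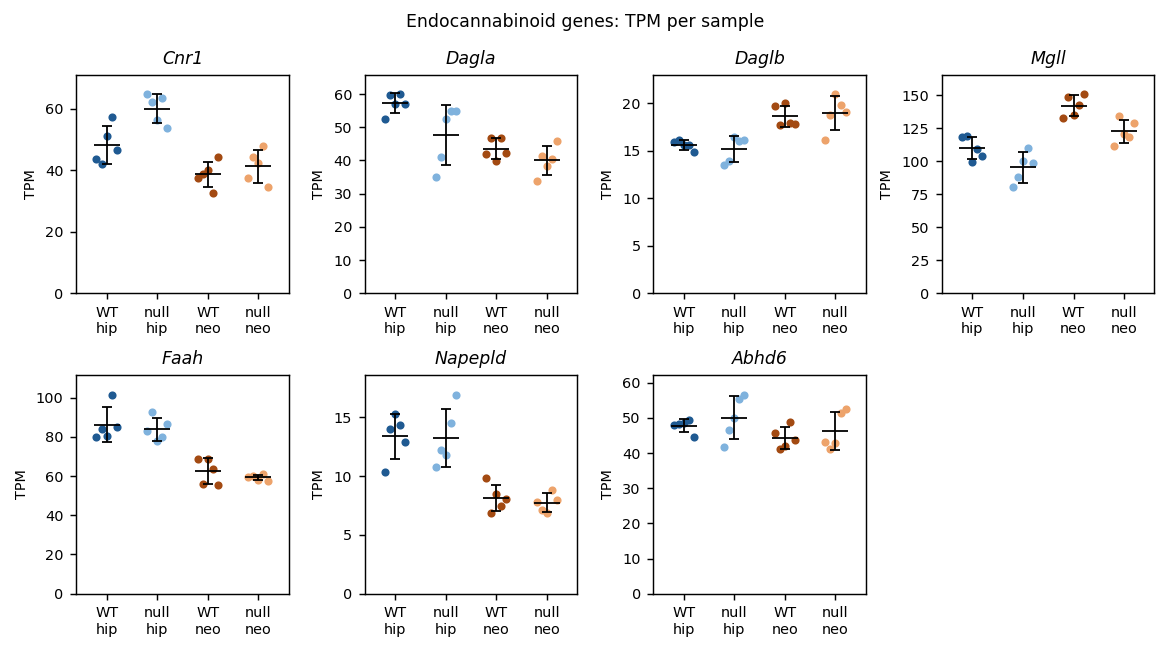
Level (TPM, y axis from 0) of each of the 7 genes in every sample of the 4 groups (hip, hippocampus; neo, neocortex; null, miR-324-null), with points for samples and black bars for the mean and SD of 5 samples. Faah and Napepld are higher in hippocampus with no overlap between the tissues, Mgll is lower in hippocampus, and the miR-324-null points of Cnr1 in hippocampus sit mostly above the WT points.

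The order differed between the tissues. In WT neocortex, Mgll stood at 142 ± 7.88 TPM, clear of Faah at 62.4 ± 6.53 TPM, and Faah was clear of Abhd6 at 44.3 ± 3.10 TPM. Abhd6, Dagla at 43.5 ± 3.16 TPM and Cnr1 at 38.7 ± 4.18 TPM overlapped one another in turn, and Daglb at 18.6 ± 1.11 TPM and Napepld at 8.14 ± 1.13 TPM were each clear of their neighbours. In miR-324-null hippocampus the means ran from Mgll at 95.4 ± 11.7 TPM through Faah at 83.8 ± 5.81 TPM, Cnr1 at 60.1 ± 4.83 TPM, Abhd6 at 50.1 ± 6.11 TPM and Dagla at 47.7 ± 9.08 TPM to Daglb at 15.2 ± 1.36 TPM and Napepld at 13.2 ± 2.48 TPM. Of these neighbours, Faah and Cnr1 did not overlap, nor did Dagla and Daglb, and the others did. In miR-324-null neocortex, Mgll was at 123 ± 8.87 TPM, Faah at 59.2 ± 1.41 TPM, Abhd6 at 46.2 ± 5.36 TPM, Cnr1 at 41.3 ± 5.39 TPM, Dagla at 40.0 ± 4.35 TPM, Daglb at 18.9 ± 1.78 TPM and Napepld at 7.71 ± 0.80 TPM, and there Abhd6, Cnr1 and Dagla overlapped in turn.

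The place of Faah in this order rests on transcripts that do not encode the enzyme. The protein-coding transcript Faah-201 held 59.3% ± 6.99 of Faah TPM in WT hippocampus and 52.7% ± 4.63 in WT neocortex, and most of the remainder was assigned to transcripts annotated as retaining an intron. The largest of these, Faah-203, has only 790 bases and took 20.1% ± 5.31 in WT hippocampus. Counting protein-coding transcripts alone, Faah fell to 50.7 TPM in WT hippocampus, below Dagla at 53.1 TPM, and to 32.7 TPM in WT neocortex, below Cnr1 at 38.4 TPM. For the other genes, protein-coding transcripts held between 87.6% (Dagla, miR-324-null hippocampus) and 99.7% (Cnr1, WT hippocampus) of TPM, and all of it in Napepld and Abhd6.

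The first comparison asked whether the levels of these genes differed without miR-324. In the hippocampus, 0 of 7 genes passed the edgeR quasi-likelihood test at an adjusted p of 0.05, where 0.128% of the 14796 genes tested did. In the neocortex, 0 of 7 passed, where 0.315% of 14930 genes did. At an unadjusted p of at most 0.05, 3 of 7 passed in the hippocampus (Cnr1, Dagla and Mgll), where 11.1% of all genes did, and 3 of 7 in the neocortex (Dagla, Mgll and Faah), where 12.2% did. DESeq2's Wald test, which called 0.939% and 1.61% of the genes, passed 1 of the 7 in each tissue, Cnr1 in the hippocampus and Mgll in the neocortex. The median log2 fold change of the 7 genes was −0.03 for hippocampus and −0.10 for neocortex, beside 0.00 in both for all genes tested. In no case did the TPM ranges of the genotypes separate, which they did for 1.64% of genes in hippocampus and 1.75% in neocortex.

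Cnr1, the receptor, had the largest positive difference of the 7 in the hippocampus. Its level was 43.8, 41.9, 51.0, 57.4 and 46.8 TPM in WT samples 1 to 5. It was 64.7, 62.2, 56.2, 63.6 and 53.7 TPM in miR-324-null samples 1 to 5. All but 1 of the WT samples lay below all of the miR-324-null ones, and WT sample 4 lay within their range. The log2 fold change was 0.32 ± 0.08 (SE; 1.25-fold), with an adjusted p of 0.236 in edgeR and 0.0383 in DESeq2, and over the 10 edgeR fits that each left out 1 sample the adjusted p ran from 0.153 to 0.49. In the neocortex, Cnr1 was at 37.6, 38.7, 40.2, 32.7 and 44.2 TPM in WT and at 37.5, 44.4, 42.4, 47.9 and 34.5 TPM in miR-324-null samples, with the groups interleaved. There the log2 fold change was 0.05 ± 0.10 with an adjusted p of 0.887 in edgeR. The lowest of the miR-324-null neocortex values was that of sample 5, the one with hippocampus markers at the WT level, and without samples 1, 2 and 4 the log2 fold change was −0.07. The part of these markers in the result was not tested.

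Whether the Cnr1 difference between genotypes itself differed between the tissues was asked with the interaction of genotype and tissue. The interaction for Cnr1 was 0.28 ± 0.14 on the log2 scale, with an unadjusted p of 0.0534 and an adjusted p of 0.89 in edgeR over 15391 genes. The other 6 genes had adjusted p between 0.966 and 0.994 in edgeR, which called 0.0195% of all genes. At an unadjusted p of at most 0.05, 0 of 7 passed, where 5.57% of genes did, and DESeq2's Wald test called 0 of 7, where it called 0.0715%.

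Mgll, the main 2-AG hydrolase, had lower means without miR-324 in both tissues. In the hippocampus it was at 118.1, 119.0, 99.2, 109.6 and 104.1 TPM in WT samples 1 to 5, and at 80.1, 87.9, 99.8, 110.3 and 98.8 TPM in miR-324-null samples 1 to 5. The 2 lowest values were miR-324-null samples 1 and 2, and the other 3 lay within or just below the WT range. The log2 fold change was −0.22 ± 0.08 with an adjusted p of 0.351 in edgeR, and −0.15 without miR-324-null samples 1 and 2. In the neocortex it was at 133.0, 148.7, 135.0, 142.7 and 150.5 TPM in WT, and at 111.2, 133.9, 120.9, 118.5 and 128.6 TPM in miR-324-null samples. All the miR-324-null samples but sample 2 lay below every WT sample. The log2 fold change was −0.25 ± 0.07, that is 1.19-fold lower, with an adjusted p of 0.173 in edgeR and 0.0419 in DESeq2, so the call depended on the tool. Without the 3 neocortex libraries of highest striatum markers it was −0.16 (adjusted p of 0.813 in edgeR). Summed striatum markers averaged 312 CPM in miR-324-null and 177 CPM in WT neocortex, and summed neocortex markers 631 and 756 CPM, and their part in the result was not tested. Over the 10 edgeR fits that each left out 1 sample the adjusted p ran from 0.0584 to 0.347.

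Dagla, the lipase that makes most synaptic 2-AG in the adult brain, also had lower means without miR-324. In the hippocampus it was at 52.5, 59.7, 57.1, 59.9 and 57.0 TPM in WT samples and at 35.1, 41.2, 52.4, 55.0 and 55.0 TPM in miR-324-null samples. Samples 1 and 2 of the miR-324-null group were far below the rest, sample 3 lay just below the lowest WT sample, and samples 4 and 5 lay within the WT range. The log2 fold change of −0.26 ± 0.09 (adjusted p of 0.351 in edgeR) shrank to −0.11 without these 2 samples, which also stood apart on the third principal component. In the neocortex the levels were 41.9, 46.9, 39.8, 46.8 and 42.2 TPM in WT and 33.9, 41.4, 38.4, 40.6 and 45.8 TPM in null samples, with a log2 fold change of −0.18 ± 0.08 (adjusted p of 0.385 in edgeR). It was −0.10 without the 3 neocortex libraries of highest striatum markers and −0.11 without miR-324-null samples 1, 2 and 4. Negative log2 fold changes were found for 5 of 7 genes in hippocampus and 6 of 7 in neocortex, Dagla and Mgll among them. Those of the other genes were smaller in size than those of Dagla and Mgll. Any part of the matches to miR-324 in these values was not tested.

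The other 4 genes differed little between genotypes. In the hippocampus the log2 fold changes were −0.02 ± 0.06 for Daglb, −0.06 ± 0.05 for Faah, −0.03 ± 0.12 for Napepld and 0.08 ± 0.07 for Abhd6. In the neocortex they were −0.04 ± 0.05 for Daglb, −0.10 ± 0.05 for Faah, −0.12 ± 0.10 for Napepld and 0.00 ± 0.07 for Abhd6. Napepld, the third gene with a match to miR-324-3p, had adjusted p of 0.957 in hippocampus and 0.69 in neocortex (edgeR).

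**Figure D2:**
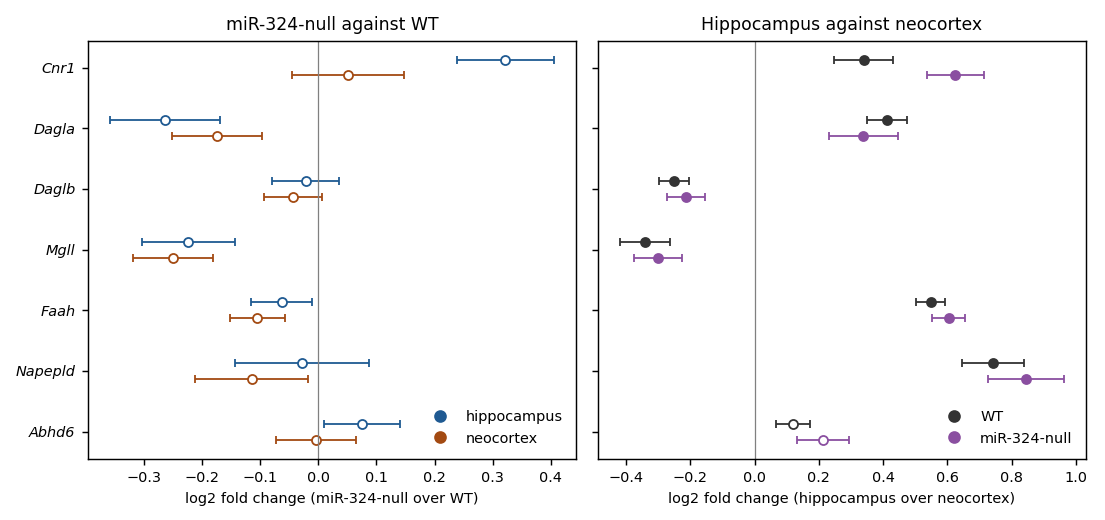
Log2 fold change (x axis) of each of the 7 genes for miR-324-null over WT (left) and for hippocampus over neocortex (right), with bars for the SE and filled points for an adjusted p of at most 0.05 in edgeR. All points on the left are open, from −0.26 to 0.32, and 12 of the 14 on the right are filled.

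The second comparison asked how the tissues differ, and there the genes separated into 2 directions. In WT mice, 6 of 7 genes passed the edgeR test, where 36.1% of the 14894 genes tested did. Cnr1, Dagla, Faah and Napepld were higher in hippocampus, as were 18.1% of all genes, and Daglb and Mgll were lower, as were 18.0%. In miR-324-null mice the same 6 passed in the same directions, where 27.4% of 15033 genes were called (13.8% higher and 13.6% lower). Abhd6 was the exception, with an adjusted p of 0.102 in WT and 0.0672 in miR-324-null mice. The median log2 fold change of the 7 genes was 0.34 in both genotypes, beside 0.00 and 0.01 for all genes tested. TPM ranges of the tissues were apart for 5 of 7 genes in WT, where 19.8% of genes were, and for 4 of 7 in miR-324-null mice, where 16.4% were.

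Both genes of N-acylethanolamine turnover were higher in hippocampus. Napepld was at 10.4, 13.96, 15.3, 14.4 and 12.9 TPM in WT hippocampus and at 9.85, 6.89, 8.46, 7.41 and 8.06 TPM in WT neocortex, with the lowest hippocampus sample above the highest neocortex sample. Its log2 fold change of 0.74 ± 0.10 (1.67-fold, adjusted p of 4.54e-05 in edgeR) was the largest of the 7 and exceeded that of 95.2% of genes. In miR-324-null mice it was 0.84 ± 0.12 (adjusted p of 0.000197 in edgeR), and again no sample overlapped. Faah ranged from 80.0 to 101.4 TPM in WT hippocampus and from 55.3 to 68.7 TPM in WT neocortex, a log2 fold change of 0.55 ± 0.05 (adjusted p of 9.47e-07 in edgeR). In miR-324-null mice its ranges were 77.7 to 92.4 TPM and 57.5 to 61.0 TPM, with a log2 fold change of 0.60 ± 0.05 (adjusted p of 5.49e-06 in edgeR). With both genes higher, the ratio of Faah to Napepld TPM was 6.53 ± 0.95 in WT hippocampus and 7.73 ± 0.77 in WT neocortex, a difference that did not pass an exact permutation test (two-sided, p = 0.0556, adjusted p = 0.0889 over 16 ratio tests).

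The diacylglycerol lipases went in opposite directions. Dagla was higher in hippocampus, at 52.5 to 59.9 TPM against 39.8 to 46.9 TPM in WT, with a log2 fold change of 0.41 ± 0.06 (adjusted p of 0.000149 in edgeR). Daglb was lower, at 14.8 to 16.1 TPM against 17.7 to 19.99 TPM in WT, with a log2 fold change of −0.25 ± 0.05 (adjusted p of 0.00087 in edgeR). Neither gene overlapped between the WT tissues. In miR-324-null mice both overlapped, with log2 fold changes of 0.34 ± 0.11 for Dagla (adjusted p of 0.0337 in edgeR) and −0.21 ± 0.06 for Daglb (adjusted p of 0.0179 in edgeR). The Dagla call in miR-324-null mice was lost in 7 of the 10 edgeR fits that left out 1 sample (hippocampus sample 3, 4 or 5, or neocortex sample 1, 2, 3 or 4; adjusted p between 0.0577 and 0.0819), and that of Daglb without neocortex sample 3 (0.0515).

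The balance of the lipases differed between the tissues in every sample within each genotype. The ratio of Dagla to Daglb TPM was 3.30, 3.70, 3.67, 3.84 and 3.84 in WT hippocampus and 2.13, 2.65, 1.99, 2.61 and 2.37 in WT neocortex, with no overlap (exact permutation test, two-sided, p = 0.00794, adjusted p = 0.0181). The p of 0.00794 is the smallest that 5 against 5 samples can give. In miR-324-null mice the ratio was 2.61, 2.95, 3.20, 3.44 and 3.41 in hippocampus and 2.10, 2.21, 1.84, 2.05 and 2.40 in neocortex, also without overlap and with the same p. Between genotypes the hippocampal ratio was lower in miR-324-null mice, with a difference of −0.24 on the log2 scale (exact permutation test, two-sided, p = 0.0238, adjusted p = 0.0476). That call was lost when WT sample 2, 3, 4 or 5 or miR-324-null sample 1, 2 or 3 was left out (adjusted p between 0.0635 and 0.0988), and the difference was −0.13 without miR-324-null samples 1 and 2. In the neocortex the genotypes did not differ past the threshold (2.12 ± 0.21 in miR-324-null against 2.35 ± 0.29 in WT, exact permutation test, two-sided, adjusted p = 0.244).

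The genes of 2-AG breakdown were split. Mgll was lower in hippocampus, at 99.2 to 119.0 TPM against 133.0 to 150.5 TPM in WT, with no overlap and a log2 fold change of −0.34 ± 0.08 (adjusted p of 0.0038 in edgeR). In miR-324-null mice it was at 80.1 to 110.3 TPM against 111.2 to 133.9 TPM, with a log2 fold change of −0.30 ± 0.07 (adjusted p of 0.00986 in edgeR). Abhd6 was nearly level, at 44.6 to 49.4 TPM in WT hippocampus and 41.2 to 48.9 TPM in WT neocortex, with log2 fold changes of 0.12 ± 0.05 in WT and 0.21 ± 0.08 in miR-324-null mice. With Dagla higher and Mgll lower in hippocampus, the ratio of Mgll to Dagla TPM was 1.93 ± 0.20 in WT hippocampus and 3.27 ± 0.21 in WT neocortex (exact permutation test, two-sided, adjusted p = 0.0181). In miR-324-null mice it was 2.02 ± 0.19 and 3.08 ± 0.20 (exact permutation test, two-sided, adjusted p = 0.0181), and between genotypes it did not pass in either tissue.

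The ratio of the degrading enzymes themselves differed between genotypes in the hippocampus. Mgll to Abhd6 TPM was 2.46, 2.47, 2.04, 2.22 and 2.34 in WT samples 1 to 5 and 1.91, 1.89, 1.991, 1.995 and 1.75 in miR-324-null samples 1 to 5. All miR-324-null samples lay below all WT samples, by a narrow margin at the edge. The mean difference was −0.27 on the log2 scale (exact permutation test, two-sided, p = 0.00794, adjusted p = 0.0181 over the 16 ratio tests). With any 1 of the 10 samples left out, the adjusted p of the same test was at most 0.0363. Groups without overlap stay apart when a sample is left out, so these values add no support. Without the 2 miR-324-null samples that stood apart the mean difference was also −0.27 (exact permutation test, two-sided, unadjusted p = 0.0357). In the neocortex the ratio was 3.22 ± 0.32 in WT and 2.68 ± 0.37 without miR-324, a difference of −0.27 that did not pass (exact permutation test, two-sided, p = 0.0397, adjusted p = 0.0705), and passed without miR-324-null sample 2 (adjusted p of 0.0159 by the same exact test). Between tissues the ratio was lower in hippocampus in both genotypes, by 0.48 on the log2 scale in each (exact permutation test, two-sided, adjusted p = 0.0181). Whether the genotype difference in the ratio differed between tissues was not tested.

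**Figure D3:**
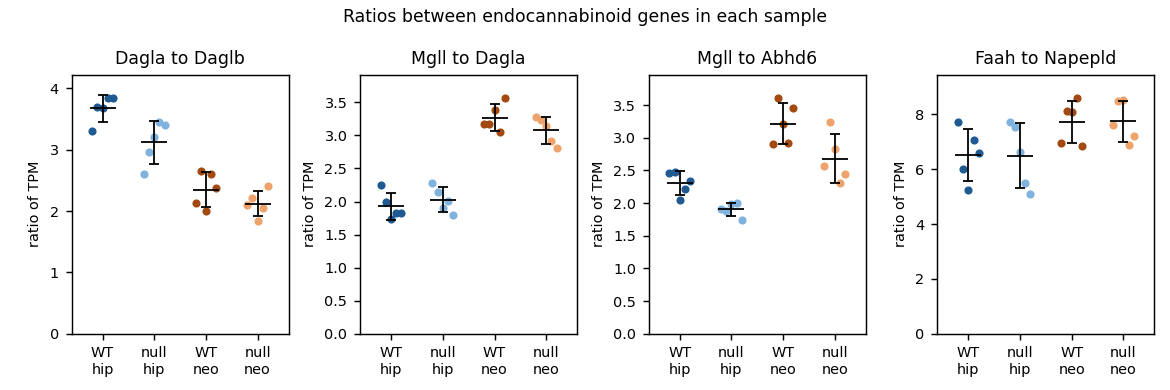
Ratio of TPM (y axis from 0) between pairs of endocannabinoid genes in every sample of the 4 groups, with points for samples and black bars for the mean and SD of 5 samples. Within each genotype, Dagla to Daglb is higher and Mgll to Dagla lower in hippocampus with no overlap between tissues, and the Mgll to Abhd6 points of miR-324-null hippocampus, 1.75 to 1.995, sit below those of WT, 2.04 to 2.47.

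For Cnr1 the tissue difference was 0.34 ± 0.09 on the log2 scale in WT (adjusted p of 0.0108 in edgeR), where the TPM ranges of 41.9 to 57.4 and 32.7 to 44.2 overlapped. In miR-324-null mice it was 0.63 ± 0.09 (1.54-fold, adjusted p of 0.000216 in edgeR), where 53.7 to 64.7 TPM in hippocampus did not overlap 34.5 to 47.9 TPM in neocortex. The difference between these values is the interaction given above, which did not pass. Markers of cholecystokinin-containing interneurons, the cells densest in CB1, summed to 198 to 221 CPM in WT hippocampus and 221 to 281 in WT neocortex, and to 183 to 247 CPM in miR-324-null hippocampus and 198 to 245 in miR-324-null neocortex. Of the 5 genes on that list, 2 were called higher and 1 lower in hippocampus in each genotype. Of all genes tested, 36.1% were called in WT and 27.4% in miR-324-null mice. Their median log2 fold change was 0.22 in WT and 0.27 in miR-324-null mice, so the sum and the single genes need not move together. Their part in the Cnr1 result was not tested.

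The tissue calls in miR-324-null mice were less steady when the libraries with unusual marker levels were left out, a choice made after seeing the data. Without neocortex samples 1, 2 and 4, which had the highest hippocampus markers, 4 of the 7 genes passed. The log2 fold changes were 0.74 for Cnr1, 0.27 for Dagla and −0.32 for Mgll in that fit, and the calls of Dagla (adjusted p of 0.318) and Mgll (0.0662, both in edgeR) were lost with 2 neocortex samples remaining. Without neocortex samples 3 and 4, which had high striatum markers, 4 of 7 passed, and the calls of Dagla and Daglb were lost. Without hippocampus samples 1 and 2, 5 of 7 passed, with those of Daglb and Mgll lost and one of Abhd6 gained. Without the libraries of high choroid plexus markers 5 of 7 passed, with that of Dagla lost. Cnr1, Faah and Napepld passed in all 4 of these fits. Over all genes, 2327 to 3182 were called in these fits of fewer samples, against 4125 with every sample. The loss of calls was thus not particular to the 7 genes.

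The division of reads between a gene's transcripts was estimated by kallisto and varied widely among samples. The 2 long protein-coding transcripts of Cnr1, Cnr1-201 with 5807 bases and Cnr1-202 with 5761, held nearly all of the gene between them, and the share of Cnr1-201 ran from 26.3% to 64.2% among WT neocortex samples alone. In contrast, Mgll-204 held 76.3% to 91.5% of Mgll in all samples, and Daglb-201 held 88.0% to 97.7% of Daglb. The main transcripts of Mgll, Dagla and Napepld each contain all the seed matches printed above. Of 28 tests of the leading transcript's share (7 genes in 4 comparisons), 0 passed an exact permutation test after adjustment, and 1 had an unadjusted p under 0.05. That was Faah-201, with 60.3% ± 3.57 of Faah TPM in miR-324-null hippocampus and 53.3% ± 2.94 in miR-324-null neocortex (exact permutation test, two-sided, p = 0.0159, adjusted p = 0.444). The share of Cnr1-201 was 65.9% ± 7.64 in miR-324-null and 50.8% ± 15.7 in WT neocortex (exact permutation test, two-sided, p = 0.0794, adjusted p = 0.722). Napepld-201 held 67.1% ± 18.9 in miR-324-null and 52.1% ± 10.9 in WT hippocampus (exact permutation test, two-sided, p = 0.159, adjusted p = 0.778).

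The rest of the pathway was followed through 50 further genes in 10 roles, of which 44 could be tested. The receptors Cnr2, Gpr18, Gpr119 and Trpv1, the kinase Dgkk and the transferase Hrasls5 were too low to test over the 20 samples. Between genotypes, edgeR called 0 of 44 genes in hippocampus, where it called 0.128% of all genes, and 1 in neocortex, where it called 0.315%. At an unadjusted p of at most 0.05, 7 of 44 passed in the hippocampus, where 11.1% of all genes did, and 10 of 44 in the neocortex, where 12.2% did. DESeq2's Wald test called Dgkz in the hippocampus and Grm5, Dgkb and Dgke in the neocortex. Over all genes it called 0.939% in hippocampus and 1.61% in neocortex. The gene called by edgeR was Dgke, a kinase that turns diacylglycerol into phosphatidic acid and so draws on the substrate of Dagla and Daglb. Dgke was lower in miR-324-null neocortex, as were 0.154% of all genes tested, at 16.8 ± 1.35 TPM against 23.5 ± 2.05 TPM in WT without overlap (log2 fold change of −0.28 ± 0.04, adjusted p of 0.00937 in edgeR). In the hippocampus it was at 15.2 ± 2.71 TPM against 20.1 ± 1.95 TPM also without overlap (log2 fold change of −0.15 ± 0.07, adjusted p of 0.483 in edgeR). In both tissues the difference was smaller in counts, which the test uses, than in TPM. Dgke is among the genes the study itself listed from these samples, so its direction is not independent of that list. The study listed it as lower in both tissues, with DESeq2 after Tximport and a more negative hippocampal log2 fold change than found here. On the counts used here, the hippocampal difference passed neither edgeR nor DESeq2's Wald test. What the different processing contributed was not tested. The median log2 fold change of the 44 genes was 0.01 in both tissues.

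Between tissues, 24 of the 44 genes (54.5%) were called in WT, 15 higher and 9 lower in hippocampus, beside 36.1% of all genes tested. In miR-324-null mice 20 (45.5%) were called, 13 higher and 7 lower, beside 27.4% of all genes tested. Of the 44, 15 (34.1%) were called in the same direction in both genotypes, beside 22.6% of all 14777 genes tested in both. Of the 6 receptors and G proteins that start 2-AG synthesis, 5 were called higher in hippocampus in each genotype. The other, the muscarinic receptor Chrm3, was called lower in WT and was not called in miR-324-null mice. The glutamate receptor Grm5, the muscarinic receptor Chrm1 and the G proteins Gnaq and Gna11 were among those called higher in both genotypes. These genes and Chrm3 are named here after their values were seen. Among phospholipases C of the beta class, which make the diacylglycerol, 0 of 4 were called higher and Plcb1 and Plcb4 were called lower in both genotypes. Plcb4 was at 14.2 ± 1.99 TPM in WT hippocampus and 43.2 ± 2.05 TPM in WT neocortex (log2 fold change of −1.75 ± 0.07 in WT and −1.89 ± 0.15 in miR-324-null mice, both past the edgeR test).

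Of the proteins that bind CB1, Cnrip1, which binds the tail of the receptor, was higher in hippocampus by 0.28 ± 0.05 in WT and 0.43 ± 0.06 in miR-324-null mice on the log2 scale, and Wasf1, an actin regulator, by 0.78 ± 0.06 and 0.73 ± 0.06. The diacylglycerol kinase Dgkg was at 50.5 ± 10.6 TPM in WT hippocampus and 16.4 ± 5.06 TPM in WT neocortex (log2 fold change of 1.65 ± 0.17 in WT and 1.495 ± 0.13 in miR-324-null mice). On the lower side were Hrasls, an acyltransferase that can make N-acylethanolamine precursors, with −0.98 ± 0.08 in WT and −0.86 ± 0.12 in miR-324-null mice, and the fatty acid carrier Fabp3, with −0.57 ± 0.06 and −0.52 ± 0.08. Each of these log2 fold changes passed the edgeR test in both genotypes, with no overlap between the tissues. Of the G proteins of the inhibitory class that CB1 couples to, 1 of 4 was called in each genotype. Gnai1 was lower in WT, where 36.1% of all genes were called, and Gnai3 higher in miR-324-null mice, where 27.4% were.

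**Figure D4:**
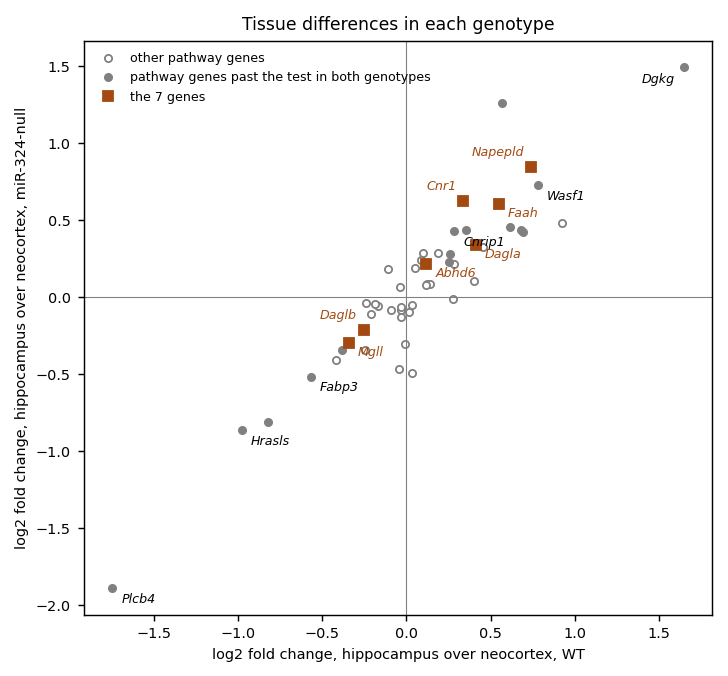
Log2 fold change of hippocampus over neocortex in WT (x axis) and in miR-324-null mice (y axis) for the 7 genes (squares) and the 44 tested pathway genes (circles, filled where the adjusted p in edgeR was at most 0.05 in both genotypes). Plcb4 lies at −1.75 and −1.89 and Dgkg at 1.65 and 1.495, while the 7 genes lie between −0.34 and 0.84.

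The genes most like each of the 7 over all 20 samples were found by Pearson correlation of log2 CPM among 14364 genes, as a description of likeness that includes the tissue difference. They were Pde11a (0.94) and Syt17 (0.93) for Cnr1, Tecpr1 (0.92) and Camkk1 (0.90) for Dagla, and Atrnl1 (0.95) and Man1a2 (0.94) for Daglb. They were Dio2 (0.94) and Znrf1 (0.93) for Mgll, Arhgef25 (0.98) and Prkag2 (0.97) for Faah, Btbd9 (0.96) and Ehd1 (0.96) for Napepld, and Ube2w (0.83) and Ostc (0.83) for Abhd6. Once each sample was expressed as its deviation from its own group mean, other genes took these places. They were Ptprf (0.88) and Dio3 (0.83) for Cnr1, Rbfox1 (0.85) for Dagla, Tomm70a (0.86) and Pdzd8 (0.86) for Daglb, and Rapgef4 (0.92) and Exoc5 (0.88) for Mgll. For Faah they were Snrnp40 (0.80) and Ptrhd1 (0.76), for Napepld Fam160a1 (0.85) and St7 (0.84), and for Abhd6 Crot (0.86) and Podxl (0.86). Depth and the levels of dissection markers also varied among these samples, and with 20 samples and this many genes such values carry no test.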

How the data were processed

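RNA from 20 samples was sequenced as stranded mRNA libraries and pseudo-aligned with kallisto to the mouse GRCm38 transcriptome (Ensembl release 92, per the paper). The labels' processing notes name GRCh38, but the identifiers are mouse. The kallisto version and strand setting were not given in the sources used here. The authors deposited, per transcript, estimated counts and TPM. Of 115270 transcripts, 113580 were matched to GENCODE M21 and summed to genes, and the others held at most 0.556% of a sample's counts. Estimated counts were rounded. Genotype, tissue and replicate number came from the labels, which do not say what the numbers mark or whether both tissues came from the same mice, so p-values measure the spread between these samples.

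Each comparison was fitted on its own with edgeR 4.0.16 (R 4.3.3, limma 3.58.1): filterByExpr, TMM, quasi-likelihood test and Benjamini-Hochberg adjustment over all genes. DESeq2 1.42.0 was an alternative. Ratios and transcript shares used exact permutation tests (Python 3.11.15, numpy 2.4.6, scipy 1.17.1), adjusted over 16 and 28 tests. The edgeR and DESeq2 fits of the 4 pairwise comparisons were tested on simulated data, but the interaction and the correlations across genes were not. The simulated log2 change was 1, so recovery of smaller changes, such as those between genotypes here, was not tested. In the genotype comparisons, 5.2% (hippocampus) and 4.7% (neocortex) of simulated edgeR calls were false, and 8.5% and 7.2% of DESeq2 calls. The 7 genes, the pathway and marker lists and the tests were chosen with earlier results of these data known. Pathway genes named in tissue comparisons are the 2 highest and 2 lowest per role among those called in both genotypes without overlap. Pathway genes outside this rule were named after their values were seen. Alternatives covered normalisation, filters, length offsets, a fit of all 20 samples, a replicate block and left-out samples. Depth limits small changes: SDs cover sampling and sample differences, not the division of reads between similar transcripts. Planned protein sequences were not used here. Some genes of these lists are not reported here.

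Replicate numbers were checked for pairing: the correlation of same-numbered samples' deviations from their group means lay between −0.211 and 0.259 over the 4 comparisons, with at most 3 of 5 pairs over 0.1, so the numbers were not taken to pair samples.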

Additional observations from a re-analysis of the deposited data

Results flagged for a closer look

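In groups of 5, a sample was singled out where its gap to the nearest other exceeded Dixon's critical value of 0.71 of the group's range, which chance gives in about 1 in 20 groups. Of 72 groups tested (levels, ratios and transcript shares), 4 were singled out. Faah in WT hippocampus was highest in sample 4, at 101.4 TPM against a group median of 83.9. Abhd6 in WT hippocampus was lowest in sample 5, at 44.6 TPM against a median of 48.1. The share of Abhd6-202 in WT hippocampus was highest in sample 1, at 72.9% against a median of 55.5%. The share of Cnr1-201 in miR-324-null neocortex was highest in sample 2, at 78.8% against a median of 65.0%.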

How the results depend on the processing

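The tissue calls of the 6 called genes in WT held in all 114 alternative fits. In miR-324-null mice 122 of 138 held, and the 16 lost, of Dagla, Daglb and Mgll, kept their direction. Abhd6 gained a call there in 4 of 23 (without neocortex sample 5, without hippocampus samples 1 and 2, in the fit of all 20 samples, and with the block). For the 7 genes, the genotype count of 0 became 1 with DESeq2 in each tissue (Cnr1 in hippocampus, Mgll in neocortex), and 1 in neocortex with a length offset in DESeq2. An exact permutation test on log2(TPM + 0.1), not adjusted over genes, gave p = 0.0238 for Cnr1 and 0.0397 for Dagla in hippocampus and 0.0159 for Mgll in neocortex. The interaction called 0 of the 7 in every fit. Over all genes, the hippocampal genotype count of 19 became 9 with at least 10 counts in every sample, 139 with DESeq2, 85 with a length offset in DESeq2 and 83 in the fit of all 20 samples, and ran from 10 to 33 with 1 sample left out. The neocortical count of 47 became 26, 240 and 184 under the first 3 of these, 30 with a length offset in edgeR and 21 without miR-324-null samples 1, 2 and 4, and ran from 27 to 566, the highest without miR-324-null sample 5. The tissue count of 4125 in miR-324-null mice became 2327 without neocortex samples 1, 2 and 4 and 2668 without the libraries of high striatum markers. The interaction count of 3 became 11 with DESeq2, and 1 with a length offset in edgeR, without the libraries of high choroid plexus or striatum markers, and without miR-324-null hippocampus samples 1 and 2; it ran from 1 to 20, the highest without miR-324-null neocortex sample 5. Fewer samples or genes enter some of these fits, and the cause of the differences was otherwise not tested.

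The numbers met the rule for pairing in no comparison, but between tissues in miR-324-null mice 3 of 5 same-numbered pairs correlated over 0.1 and best with their own number, a hint from the data and not the design. Fitting the replicate number as a block gave 4 genes in the hippocampal and 30 in the neocortical genotype comparison, and called 7 of the 7 genes between tissues in miR-324-null mice, Abhd6 included (adjusted p of 0.0229 in edgeR). For ratios, the paired sign-flip test (replicate block) passed 0 of 16 in place of 8, since 5 pairs cannot give a p below 0.0625. With 1 sample left out 7 to 9 passed.

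Reversals of sign were limited to small log2 differences that passed no test. In hippocampus between genotypes, without miR-324-null samples 1 and 2 Daglb was 0.032, Napepld 0.068 and the ratio of Mgll to Dagla −0.014. In neocortex Abhd6 was 0.012 with a length offset in edgeR, 0.010 with one in DESeq2, 0.0087 without miR-324-null samples 1, 2 and 4 and 0.055 in TPM. Cnr1 was −0.071 without those samples and −0.00045 without the striatum-marked libraries, and Daglb was 0.027 without those samples and 0.020 in TPM. In the interaction Daglb was −0.015 with either length offset, −0.0098 without the choroid-marked libraries and −0.044 without neocortex samples 1, 2 and 4. Dagla was 0.066 without hippocampus samples 1 and 2, and Mgll −0.061 without the striatum-marked libraries. With 1 sample left out, the fold changes ran from −0.048 to 0.0041 for Daglb and −0.129 to 0.027 for Napepld in hippocampus, and from −0.015 to 0.118 for Cnr1 and −0.050 to 0.033 for Abhd6 in neocortex. Those of the interaction ran from −0.0044 to 0.050 for Daglb, −0.015 to 0.079 for Mgll and −0.0080 to 0.144 for Napepld. The ratio of Faah to Napepld ran from −0.089 to 0.068 in hippocampus and −0.039 to 0.044 in neocortex.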
